A study of Homo sapiens with 6 samples.

Results

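Human mitochondrial DNA carries 37 genes, and all of them are among the 57773 genes of the deposited RPKM table. They were taken as the genes whose symbol starts with MT-. Of these, 13 encode proteins of the respiratory chain, 2 encode the rRNAs of the mitochondrial ribosome and 22 encode tRNAs. Their levels were compared between 3 libraries of RPE1 cells treated with the solvent DMSO and 3 libraries of RPE1 cells treated with 2.5 µM Nutlin-3. Both treatments lasted 24 h in DMEM with fetal bovine serum, and libraries carry the replicate numbers of the labels. RPE1 cells come from human retinal pigment epithelium and were made immortal. Nutlin-3 binds MDM2, a ubiquitin ligase that marks the transcription factor p53 for destruction, and thereby stabilises p53. The libraries were made from poly(A) RNA with a strand-specific kit. The labels number triplicates without saying that these were separate cultures, so p-values measure only how these libraries spread, and that spread may be technical.

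Both strands of the circular mitochondrial genome are copied in long RNAs that span many genes. The tRNA genes lie between most of the protein and rRNA genes, and the enzymes that release the tRNAs from the long RNA also free the messages and rRNAs on either side. The heavy-strand RNA gives both rRNAs, most tRNAs and all messages except MT-ND6, while the light-strand RNA gives MT-ND6 and the other tRNAs. The messages and rRNAs receive short poly(A) tails, except that the MT-ND6 message is known to carry little or no tail in human cells. Mature tRNAs carry none.

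The ends of the messages show what a tail does in this genome. Of the 13 messages, 6 end inside a stop codon, 5 of them with T and 1 with TA, and the tail supplies the missing bases. The last 30 bases of the 6 follow, from GENCODE 29 transcripts of the GRCh38 assembly (5′ to 3′ on the strand of each gene, DNA letters), with the incomplete stop codon in capitals.
MT-ND1: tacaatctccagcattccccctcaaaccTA
MT-ND2: ctatctccccttttatactaataatcttaT
MT-CO3: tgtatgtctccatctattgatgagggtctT
MT-ND3: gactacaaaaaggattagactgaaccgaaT
MT-ND4: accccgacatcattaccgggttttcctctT
MT-CYB: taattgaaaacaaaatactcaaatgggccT

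The ends of MT-CO1 and MT-ND6 differ from these, since AGA and AGG stand where a stop codon would be. They are shown because MT-CO1 had the largest rise among the messages and MT-ND6 the only value below 0. Capitals mark the last 3 bases.
MT-CO1: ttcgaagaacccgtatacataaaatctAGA
MT-ND6: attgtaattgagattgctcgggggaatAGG

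In 2 places neighbouring genes on the same strand overlap by more than 1 base and are carried by 1 message, so some reads belong to both. MT-ATP8 and MT-ATP6 share 46 bases, which is 22.2% of MT-ATP8, and MT-ND4L and MT-ND4 share 7 bases. The shared stretch of the first pair starts with the ATG of MT-ATP6, in capitals.
MT-ATP8 and MT-ATP6: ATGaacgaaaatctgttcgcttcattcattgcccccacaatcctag

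For the 6 tRNA genes that passed the test described below, the whole gene sequence is given with the anticodon in capitals. The first 3 rose and the last 3 fell.
MT-TT: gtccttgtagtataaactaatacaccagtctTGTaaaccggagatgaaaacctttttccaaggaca
MT-TL1: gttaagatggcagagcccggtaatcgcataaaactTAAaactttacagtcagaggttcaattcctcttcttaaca
MT-TK: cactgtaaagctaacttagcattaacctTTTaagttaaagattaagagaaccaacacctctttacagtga
MT-TE: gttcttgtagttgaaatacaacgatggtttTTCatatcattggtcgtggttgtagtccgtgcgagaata
MT-TM: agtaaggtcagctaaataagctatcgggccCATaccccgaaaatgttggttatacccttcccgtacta
MT-TL2: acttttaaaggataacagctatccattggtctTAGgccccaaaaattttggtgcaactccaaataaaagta

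RPKM counts reads per kilobase of gene and per 1 M reads of library, and RPM is the same without the gene length. For 27830 genes the length that gave whole reads was the gene span, which in nuclear genes includes introns. RPKM therefore lowers nuclear genes with introns, and their levels cannot be compared with those of mitochondrial genes. Mitochondrial genes have no introns, and the deposited values of all 37 came out as whole reads within 0.02 of a read. The library sizes behind the RPKM, from 29.8 to 42.3 M reads, are the authors' own. They were 1.01 to 1.03 times the recovered reads in DMSO and 0.942 to 0.961 times in Nutlin-3, so the scaling lowers DMSO values against Nutlin-3 values, and results are also given scaled to the recovered reads. Among the markers of the line, VIM stood at 474 ± 24.1 RPKM in DMSO (mean ± SD, n = 3) and KRT18, a keratin, at 40.6 ± 2.18. KRT18 (log2 0.79) and the keratin KRT8 (log2 0.68) rose with Nutlin-3, and OTX2, a transcription factor of the pigment epithelium, fell (log2 -0.25, limma adjusted p = 0.0233, n = 3), a call lost without DMSO library 1 or 2 or Nutlin-3 library 1 or 3 (adjusted p up to 0.0719). RPE65 and TYR, which define mature pigment epithelium, were at 0.00192 and 8.69e-05 RPKM. The 9 measured markers of other cell types summed to 0.0132 to 0.0376 RPKM in DMSO and to 0.0177 to 0.0319 in Nutlin-3 libraries.

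Mitochondrial messages ranked high by RPKM, but the unit lowers nuclear genes with introns, so these ranks are not ranks of RNA abundance. Of the 20 genes with the highest mean RPKM, 13 were mitochondrial, and they held the first 7 places. The 37 genes took 5.12%, 4.96% and 4.72% of the recovered reads in DMSO libraries 1, 2 and 3 and 5.65%, 5.29% and 5.53% in Nutlin-3 libraries 1, 2 and 3. The groups did not overlap, and their mean shares were 4.93 ± 0.198% and 5.49 ± 0.186% (SD, n = 3), a ratio of 1.11. On the authors' library sizes the ratio was 1.19, from 48576 ± 2035 to 57738 ± 1749.7 RPM. In bulk RNA, a change in the number of cells of a kind and a change in RNA per cell cannot be told apart.

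The levels of the messages spanned a wide range although most come from 1 long RNA. In DMSO, MT-ATP6, which encodes a membrane subunit of ATP synthase, was highest at 8310.0 ± 507 RPKM, and the ranges of MT-CO1 (6737 ± 237) and MT-ND4 (6629 ± 291) below it overlapped each other. MT-CO2 (5887 ± 235), MT-ATP8 (5369.7 ± 489) and MT-CO3 (5095 ± 236) came next, each with a range overlapping the next. MT-ND4L (4202 ± 227), MT-CYB (2650.4 ± 15.6), MT-ND2 (2155 ± 98.2) and MT-ND1 (1803 ± 55.7) followed without overlap. MT-ND5 (1695 ± 34.7) and MT-ND3 (1650.3 ± 43.9) overlapped each other. MT-ND6, the light-strand message, was lowest at 528 ± 62.0 RPKM, 15.7-fold below MT-ATP6 in DMSO and 21.3-fold below it in Nutlin-3. Nuclear copies of some of these genes, described below, hold reads that are not in these levels. In DMSO the copy took 25.2% of the reads on both for MT-CO1 and 13.9% for MT-ATP8, so the order could shift with them.

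**Figure D1:**
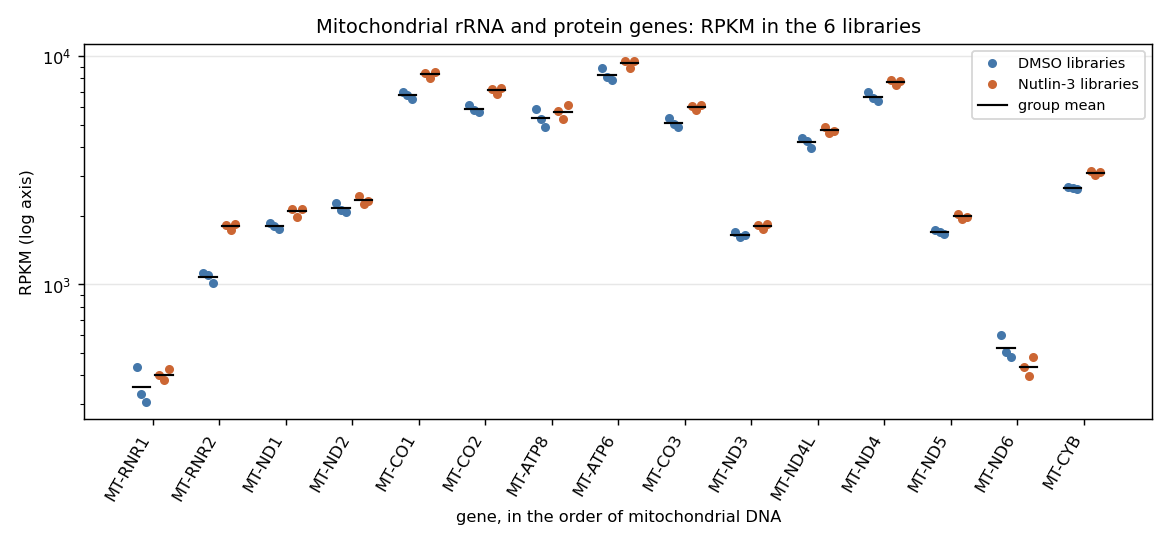
RPKM of the 2 rRNA and 13 protein genes on a log axis, in the order of mitochondrial DNA; points are libraries and bars are group means (n = 3). MT-RNR2 moved furthest between the groups, and MT-ND6 was the only protein gene whose Nutlin-3 libraries all lay below the DMSO libraries.

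With Nutlin-3, the large rRNA had the largest rise among the mitochondrial genes that passed the test, most messages rose by a smaller amount, and the tRNA genes went both ways. By limma on log2(RPKM + 0.5) with Benjamini-Hochberg adjustment over 12212 genes, 14 of the 37 genes rose (37.8%) and 3 fell (8.11%), with 20 not passing at 0.05. Among all tested genes 29.1% rose and 22.5% fell, 51.6% in all, so many genes of any kind changed in these cells. By limma voom on the recovered reads 19 of 36 tested members rose and 4 fell, against 25.9% and 24.3% of all genes tested that way. That fit kept the authors' library sizes, so it is no check on the scaling. The median log2 change was 0.20 over the 37 genes, 0.21 over the protein genes and 0.02 over all tested genes. By class, 10 of 13 protein genes rose and 0 fell (1 was lower at an unadjusted limma p under 0.05, and 1 passed as lower by limma voom), 1 of 2 rRNA genes rose, and 3 of 22 tRNA genes rose and 3 fell. The 3 Nutlin-3 libraries all lay above the 3 DMSO libraries for 15 of the 37 genes and all below for 4, against 34.4% and 27.4% of all tested genes.

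The count of rises moved with the scaling and with single libraries. Scaled to the recovered reads, 10 of the 37 rose and 5 fell. That scaling also turned the balance over all tested genes, from 3551 rises and 2745 falls to 2462 and 3998. Without DMSO replicate 1, 20 rose and 2 fell. With DMSO replicate 2, Nutlin-3 replicate 1 or Nutlin-3 replicate 3 left out, 10 rose. Without a filter on low values 3 rose. Under quantile normalization, which forces equal values on the genes of highest RPKM in each library, 3 rose and 6 fell. The 10 rises among the protein genes came to 6 when scaled to the recovered reads, to 1 under quantile normalization and to 0 without a filter (by limma, with 1 higher at an unadjusted p under 0.05).

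**Figure D2:**
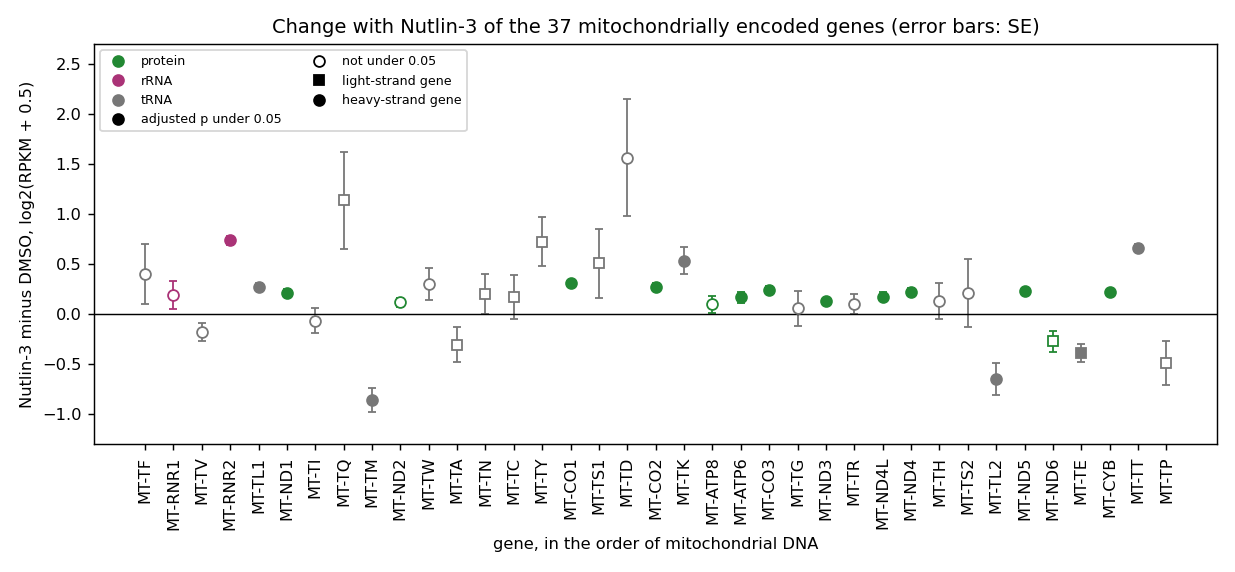
Change of each of the 37 genes, Nutlin-3 minus DMSO on log2(RPKM + 0.5), with its SE, in the order of mitochondrial DNA; filled symbols passed limma at an adjusted p of 0.05, squares are light-strand genes. The messages of the heavy strand lie in a narrow band above 0, while tRNA genes spread from -0.86 to 1.56.

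MT-RNR2 (ENSG00000210082) encodes the large-subunit rRNA of the mitochondrial ribosome. It stood at 1124, 1099 and 1016 RPKM in DMSO libraries 1, 2 and 3 and at 1826, 1737 and 1837 RPKM in Nutlin-3 libraries 1, 2 and 3. The groups were far apart, and the gap between them was several times the spread inside either. MT-RNR2 rose 1.67-fold (log2 0.74, SE 0.046, n = 3 per group, limma adjusted p = 1.54e-04), and scaled to the recovered reads the log2 change was 0.64. Under quantile normalization it was 0.19 and did not pass (limma adjusted p = 0.221). MT-RNR1 (ENSG00000211459), the small-subunit rRNA that lies upstream of it with only the MT-TV tRNA gene between, stood at 433, 332 and 305 RPKM in DMSO and at 403, 380.2 and 425 RPKM in Nutlin-3. Its groups overlapped because DMSO library 1 was higher than every other library. MT-RNR1 did not pass (log2 0.19, limma adjusted p = 0.293), and scaled to the recovered reads its log2 change was 0.096 (limma adjusted p = 0.585). Without DMSO replicate 1 its log2 change was 0.34 (limma adjusted p = 0.0155). By limma voom, which kept the authors' library sizes, it passed (adjusted p = 0.0451).

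The ratio of the 2 rRNAs within a library does not depend on the scaling between libraries. MT-RNR2 over MT-RNR1 was 2.60, 3.31 and 3.33 in DMSO and 4.54, 4.57 and 4.32 in Nutlin-3, with no overlap. MT-RNR2 over MT-ND1, the message downstream of it, was 0.605, 0.610 and 0.581 in DMSO and 0.850, 0.875 and 0.860 in Nutlin-3. In reads, the large rRNA thus gained on the rRNA upstream of it and on the message downstream of it. As the libraries were made from poly(A) RNA, a change in rRNA level and a change in the part captured by its tail cannot be told apart. Of all reads on the 37 genes, the rRNAs took 4.16 ± 0.133% in DMSO and 5.53 ± 0.0384% in Nutlin-3 (SD, n = 3), and the messages 95.7 ± 0.133% and 94.3 ± 0.0429%.

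DMSO library 1 also stood apart in RNAs that lack a poly(A) tail. The 16 measured genes of a list of such RNAs, mostly small nuclear and other noncoding RNAs, summed to 5.98, 2.53 and 2.19 RPKM in DMSO and to 3.15, 2.86 and 3.73 in Nutlin-3. In the same library all 13 messages were highest of the DMSO group, and MT-RNR1, MT-TD and MT-TQ were well above the other DMSO libraries. What part this RNA had in the results was not tested.

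**Figure D3:**
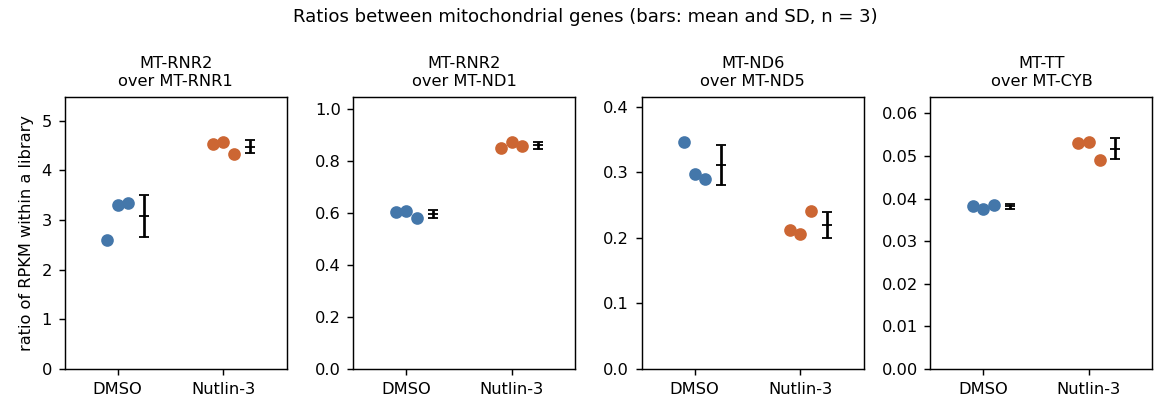
Ratios of RPKM between pairs of mitochondrial genes within each library, with the mean and SD per group (n = 3) beside the points. MT-RNR2 over MT-RNR1 and over MT-ND1 and MT-TT over MT-CYB were higher in every Nutlin-3 library, and MT-ND6 over MT-ND5 was lower.

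Complex IV, cytochrome c oxidase, passes electrons to oxygen, and its 3 mitochondrial subunits form the catalytic core. MT-CO1 (ENSG00000198804), which holds the oxygen-reducing centre, stood at 6969.9, 6746 and 6497 RPKM in DMSO and at 8427, 8072 and 8553 in Nutlin-3. It had the largest rise of the messages (1.24-fold, log2 0.31, SE 0.035, n = 3 per group, limma adjusted p = 0.00106). MT-CO2, the subunit that takes electrons from cytochrome c, stood at 6143, 5837 and 5682 RPKM in DMSO and at 7217, 6819.5 and 7285 in Nutlin-3. The groups of both genes were clear of each other. MT-CO2 rose 1.21-fold (log2 0.27, limma adjusted p = 0.00275, n = 3). MT-CO3, the third core subunit, stood at 5352, 5045 and 4888 RPKM in DMSO and at 6069, 5844 and 6120.5 in Nutlin-3 and rose 1.18-fold (log2 0.24, limma adjusted p = 0.00421, n = 3). These 3 messages also rose when scaled to the recovered reads. Without a filter on low values none of the 3 passed (limma adjusted p = 0.458, 0.475 and 0.484, and 0 of 13 protein genes rose, with 1 higher at an unadjusted p under 0.05). Under quantile normalization MT-CO3 alone of the 3 passed (log2 0.072), with MT-ATP8 at -0.072. MT-ATP8 lay above MT-CO3 in every DMSO library and below it in every Nutlin-3 library. Quantile normalization turns that change of places into equal and opposite values, so this call says nothing on the size of the rise.

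MT-CYB (ENSG00000198727) encodes cytochrome b, the only mitochondrial subunit of complex III, which hands electrons to cytochrome c. Its values were 2666, 2651 and 2634 RPKM in DMSO and 3151, 3018 and 3116 in Nutlin-3, the tightest DMSO group among the messages. MT-CYB rose 1.17-fold (log2 0.22, SE 0.021, n = 3 per group, limma adjusted p = 5.75e-04), and scaled to the recovered reads its log2 change was 0.13 (limma adjusted p = 0.00736). The call was lost without a filter (limma adjusted p = 0.255) and under quantile normalization (log2 0.01, limma adjusted p = 0.381).

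Complex I, which takes electrons from NADH, has 7 mitochondrial subunits in its membrane arm. MT-ND5, the largest of them, stood at 1728, 1697 and 1659 RPKM in DMSO and at 2047, 1939 and 1981 in Nutlin-3 and rose 1.17-fold (log2 0.23, limma adjusted p = 0.00143, n = 3). MT-ND4 stood at 6943, 6573 and 6369.6 RPKM in DMSO and at 7914, 7496 and 7787 in Nutlin-3 and rose 1.17-fold (log2 0.22, limma adjusted p = 0.00523, n = 3). For both genes every Nutlin-3 library lay above every DMSO library. MT-ND1 stood at 1859, 1803 and 1747 RPKM in DMSO and at 2148, 1986 and 2136 in Nutlin-3 and rose 1.16-fold (log2 0.21, limma adjusted p = 0.00756, n = 3). Scaled to the recovered reads the MT-ND1 call was lost (log2 0.12, limma adjusted p = 0.0620). Without a filter the calls of MT-ND5, MT-ND4 and MT-ND1 were lost (limma adjusted p = 0.135, 0.554 and 0.203), and under quantile normalization their log2 changes were 0 by construction.

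The smaller rises in complex I lay near the threshold. With each library left out in turn the log2 change stayed between 0.13 and 0.21 for MT-ND4L and between 0.11 and 0.15 for MT-ND3. MT-ND4L rose from 4202 ± 227 to 4735 ± 138 RPKM (log2 0.17, limma adjusted p = 0.0234, n = 3), a call lost without DMSO replicate 2, Nutlin-3 replicate 1 or Nutlin-3 replicate 3 (adjusted p up to 0.0716). MT-ND3 rose from 1650.3 ± 43.9 to 1802 ± 51.7 RPKM (log2 0.13, limma adjusted p = 0.0190, n = 3), a call lost without DMSO library 2 or 3 or Nutlin-3 library 1 or 3 (adjusted p up to 0.0639). Both calls were also lost when scaled to the recovered reads. MT-ND2 overlapped between the groups and did not pass, at 2155 ± 98.2 and 2337 ± 93.1 RPKM (log2 0.12, limma adjusted p = 0.0749, n = 3). Scaled to the recovered reads its log2 change was 0.022 (limma adjusted p = 0.718). It passed without DMSO replicate 1 (limma adjusted p = 0.0320) and by limma voom with the authors' library sizes (adjusted p = 0.00764).

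MT-ND6 (ENSG00000198695), the only message of the light strand, had lower values in each Nutlin-3 library than in any DMSO library. It stood at 599, 506 and 481 RPKM in DMSO and at 433, 398 and 479 in Nutlin-3. The highest Nutlin-3 library lay next to the lowest DMSO library. Its log2 change was -0.27 (SE 0.11, limma adjusted p = 0.0780, n = 3) and did not pass, whereas it passed as lower by limma voom on recovered reads (log2 -0.28, adjusted p = 6.27e-04), scaled to the recovered reads (log2 -0.37, limma adjusted p = 0.0279) and under quantile normalization (limma adjusted p = 0.0289). DMSO library 1 was the highest, and without it the log2 change was -0.18 (limma adjusted p = 0.157). With the replicate number as a block the limma adjusted p was 0.114. Within a library, MT-ND6 over MT-ND5, the message encoded next to it on the other strand, was 0.346, 0.298 and 0.290 in DMSO and 0.212, 0.205 and 0.242 in Nutlin-3. MT-ND6 over MT-CYB was 0.199 ± 0.0222 in DMSO and 0.141 ± 0.0113 in Nutlin-3. Both ratios separated the groups in every library, and reads on MT-ND6 thus lost ground to those on heavy-strand messages whatever the scaling. This message carries little or no tail and the libraries were made from poly(A) RNA, so its reads cannot be taken as its level. DMSO library 1, the highest for MT-ND6, also had the highest sum of RNAs without a tail (5.98 RPKM), and the part of such RNA was not tested. Whether the deposited counting used strand is not given in the sources used here, so reads from the opposite strand of this region cannot be told apart from MT-ND6.

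ATP synthase has 2 mitochondrial subunits, MT-ATP6 and MT-ATP8, made from the overlapping message shown above. MT-ATP6 stood at 8880.2, 8139.5 and 7910.4 RPKM in DMSO and at 9512, 8883 and 9537 in Nutlin-3, where the lowest Nutlin-3 library lay just above the highest DMSO library. It rose 1.12-fold (log2 0.17, limma adjusted p = 0.0436, n = 3), a call lost when scaled to the recovered reads (log2 0.07, limma adjusted p = 0.303) and without DMSO library 2 or 3 or Nutlin-3 library 1 or 3 (adjusted p up to 0.120). MT-ATP8 stood at 5882, 5319 and 4908 RPKM in DMSO and at 5742, 5336 and 6106 in Nutlin-3. Its groups overlapped and it did not pass (log2 0.09, limma adjusted p = 0.370, n = 3). MT-ATP8 over MT-ATP6 was 0.645 ± 0.0221 in DMSO and 0.615 ± 0.0221 in Nutlin-3, with overlap, and MT-ND4L over MT-ND4, the other pair on 1 message, was 0.634 ± 0.0139 and 0.612 ± 0.00761, lower in every Nutlin-3 library.

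As shares of the reads on all 13 messages, 2 genes were higher in every Nutlin-3 library, 5 were lower and 6 overlapped, and most shifts were small. MT-CO1 took 22.4 ± 0.185% in DMSO and 23.6 ± 0.202% in Nutlin-3, and MT-CO2 took 8.66 ± 0.0175% and 8.93 ± 0.0685% (SD, n = 3), both without overlap. MT-ATP6 went from 12.2 ± 0.260% to 11.6 ± 0.117% and MT-ND2 from 4.83 ± 0.0450% to 4.47 ± 0.107%, both lower in every Nutlin-3 library, as were MT-ND3 and MT-ND4L. MT-ND6 went from 0.596 ± 0.0456% to 0.421 ± 0.0298%, which is 70.6% of its DMSO share and the largest shift. MT-ND4, MT-ND5 and MT-CYB differed by less than the spread between libraries, with shares of 19.7%, 6.61% and 6.51% in DMSO and 19.6%, 6.62% and 6.49% in Nutlin-3. By complex, the summed messages in RPM were 1.22 times the DMSO level for complex IV, 1.17 times for complex III and 1.15 times for complex I, without overlap, and 1.11 times for ATP synthase, with overlap.

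The tRNA genes span 59 to 75 bases and rest on few reads, from 2 to 1003 per gene and library. Together the 22 genes gave 81.5, 75.4 and 74.3 RPM in DMSO and 87.6, 83.4 and 92.4 in Nutlin-3. Of the reads on the 37 genes they took 0.159 ± 0.00223% and 0.152 ± 0.00458%, so their share of mitochondrial reads did not differ beyond the spread. Of the 7 tRNA genes with at least 100 reads per library on average, 3 rose and 1 fell, and of the 15 below that, 0 rose and 2 fell by limma (2 were higher at an unadjusted p under 0.05, and 3 passed as higher by limma voom). Over all tested genes 29.1% rose and 22.5% fell, and a difference by read number was not tested. The libraries were made from poly(A) RNA and mature tRNAs carry no tail, so reads on tRNA genes cannot be taken as levels of mature tRNAs. How reads across a boundary between a tRNA gene and its neighbour were assigned is not given in the sources used here.

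**Figure D4:**
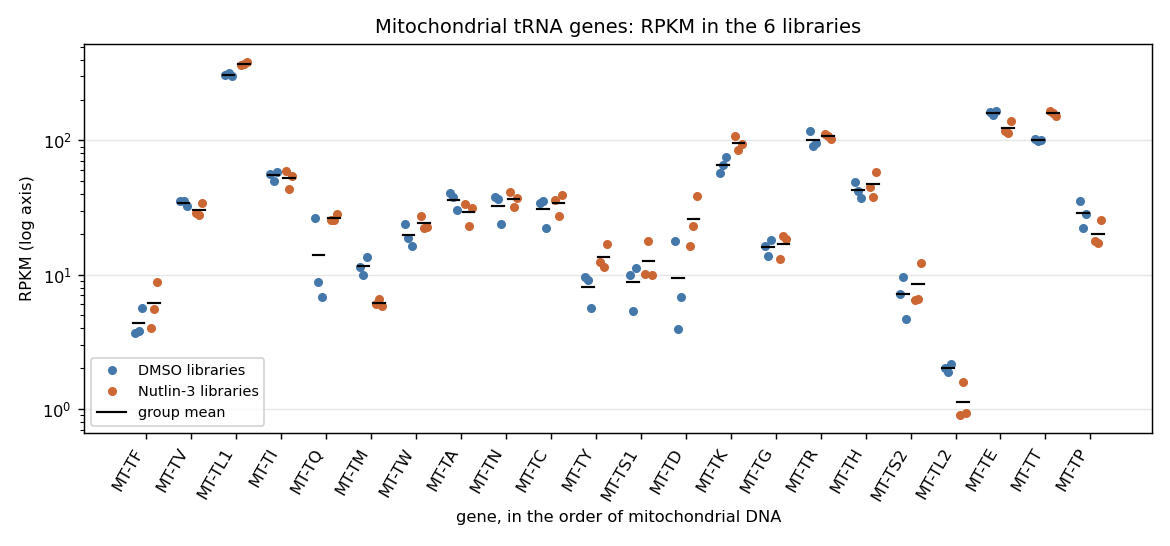
RPKM of the 22 tRNA genes in each library on a log axis, in the order of mitochondrial DNA, with group means as bars (n = 3). MT-TT, MT-TL1 and MT-TK lie higher in every Nutlin-3 library, MT-TM, MT-TL2 and MT-TE lower, and MT-TQ and MT-TD have 1 DMSO library far above the other DMSO libraries.

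MT-TT (ENSG00000210195), the threonine tRNA gene that follows MT-CYB with no base between, stood at 102, 99.7 and 101 RPKM in DMSO and at 167, 161 and 153 in Nutlin-3, on 196 to 380 reads per library. The DMSO libraries were almost equal and every Nutlin-3 library was far above them. MT-TT rose 1.58-fold (log2 0.66, SE 0.039, n = 3 per group, limma adjusted p = 1.29e-04) and kept its call in each of the 16 alternatives. Over its neighbour MT-CYB the ratio went from 0.0381 ± 0.000482 to 0.0517 ± 0.00241. MT-TP, the proline tRNA gene on the other strand beside it, stood at 28.6 ± 6.65 RPKM in DMSO and 20.2 ± 4.72 in Nutlin-3, overlapped and did not pass (log2 -0.49, limma adjusted p = 0.122, n = 3), although it passed as lower by limma voom on recovered reads (adjusted p = 0.0251). Without DMSO replicate 1 its log2 change was -0.32 (limma adjusted p = 0.284).

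MT-TL1, one of the leucine tRNA genes, lies between MT-RNR2 and MT-ND1 and had the highest RPKM of the tRNA genes. It stood at 308, 320.0 and 301 RPKM in DMSO and at 363, 373 and 386 in Nutlin-3, without overlap, and rose 1.21-fold (log2 0.27, SE 0.036, limma adjusted p = 0.00198, n = 3). Its rise was smaller than that of MT-RNR2 beside it, and MT-TL1 over MT-RNR2 was lower in every Nutlin-3 library, going from 0.287 ± 0.0120 to 0.208 ± 0.00851. MT-TK, the lysine tRNA gene between MT-CO2 and MT-ATP8, stood at 56.8, 65.2 and 74.9 RPKM in DMSO and at 108, 84.2 and 93.5 in Nutlin-3 and rose 1.45-fold (log2 0.53, limma adjusted p = 0.0193, n = 3). The MT-TK call was lost with DMSO replicate 2, Nutlin-3 replicate 1 or Nutlin-3 replicate 3 left out (adjusted p up to 0.0550).

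The 3 tRNA genes that fell lie on both strands. MT-TE, the glutamate tRNA gene next to MT-ND6 on the light strand, stood at 164, 155 and 165 RPKM in DMSO and at 117, 113 and 140.2 in Nutlin-3 and fell to 76.5% of its DMSO level (log2 -0.39, limma adjusted p = 0.0138, n = 3). MT-TE over MT-ND6 was 0.307 ± 0.0338 in DMSO and 0.282 ± 0.0114 in Nutlin-3, with overlap, so these light-strand neighbours did not move apart beyond their spread. MT-TM, the methionine tRNA gene before MT-ND2, stood at 11.5, 9.87 and 13.6 RPKM in DMSO and at 6.05, 6.57 and 5.81 in Nutlin-3, on 12 to 33 reads per library. MT-TM fell to 52.7% of its DMSO level (log2 -0.86, SE 0.12, limma adjusted p = 0.00227, n = 3). MT-TL2, the other leucine tRNA gene, had the fewest reads of the 37 genes, with 6, 4 and 5 reads in DMSO and 2, 4 and 2 in Nutlin-3. Its fall (log2 -0.65, limma adjusted p = 0.0204, n = 3) was lost without DMSO library 1 or 3 or Nutlin-3 library 1 or 3 (adjusted p up to 0.0627) and is uncertain at this depth.

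Several tRNA genes had wide changes that did not pass. MT-TD, for aspartate, stood at 17.7, 3.95 and 6.81 RPKM in DMSO and at 16.3, 23.0 and 38.2 in Nutlin-3 (log2 1.56, SE 0.59, limma adjusted p = 0.0722, n = 3). MT-TQ, for glutamine, stood at 26.3, 8.86 and 6.86 RPKM in DMSO and at 25.5, 25.6 and 28.3 in Nutlin-3 (log2 1.14, limma adjusted p = 0.104, n = 3). In both genes DMSO library 1 sat among the Nutlin-3 libraries and the other 2 DMSO libraries lay below them all. Without DMSO replicate 1 both passed as higher, MT-TD with a log2 change of 2.12 (limma adjusted p = 0.0181) and MT-TQ with 1.70 (limma adjusted p = 0.00110), and both passed by limma voom on recovered reads. MT-TY, for tyrosine, stood at 9.68, 9.15 and 5.61 RPKM in DMSO and 12.5, 11.4 and 16.9 in Nutlin-3, did not overlap and did not pass (log2 0.72, limma adjusted p = 0.0529, n = 3), although it passed as higher with a minimum mean of 1 RPKM (limma adjusted p = 0.0442) and by limma voom on recovered reads (adjusted p = 0.0252).

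The other 12 tRNA genes overlapped between the groups and did not pass. On the heavy strand, mean RPKM in DMSO and Nutlin-3 was 4.37 and 6.11 for MT-TF (phenylalanine), 34.5 and 30.4 for MT-TV (valine), 54.8 and 52.6 for MT-TI (isoleucine) and 19.7 and 24.1 for MT-TW (tryptophan). It was 16.1 and 16.9 for MT-TG (glycine), 102 and 108 for MT-TR (arginine), 42.7 and 47.1 for MT-TH (histidine) and 7.20 and 8.44 for MT-TS2 (serine). On the light strand it was 36.3 and 29.3 for MT-TA (alanine), 32.5 and 36.9 for MT-TN (asparagine), 30.6 and 34.3 for MT-TC (cysteine) and 8.82 and 12.6 for MT-TS1, the other serine tRNA gene. The nearest of these to a call was MT-TV (log2 -0.18, limma adjusted p = 0.142, n = 3), which passed as lower when scaled to the recovered reads (log2 -0.28, limma adjusted p = 0.0419). Without DMSO replicate 1, MT-TW and MT-TR passed as higher (limma adjusted p = 0.0393 and 0.0310).

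Sums by strand are carried by the few tRNA genes with many reads. The median log2 change was 0.17 over the 14 heavy-strand and 0.19 over the 8 light-strand tRNA genes. The 14 heavy-strand tRNA genes gave 54.9 ± 1.52 RPM in DMSO and 67.3 ± 2.37 in Nutlin-3 (SD, n = 3), without overlap. The 8 light-strand tRNA genes gave 22.1 ± 2.37 and 20.5 ± 2.10, with overlap. As a share of the reads on all 37 genes, the light-strand tRNAs went from 0.0455 ± 0.00295% to 0.0355 ± 0.00284%, lower in every Nutlin-3 library, and the heavy-strand tRNAs from 0.113 ± 0.00236% to 0.116 ± 0.00207%, with overlap. Without MT-TL1 and MT-TT of the heavy strand and MT-TE of the light strand, the other 19 tRNA genes of both strands gave 36.0 ± 3.70 RPM in DMSO and 40.7 ± 3.37 in Nutlin-3, with overlap. No test was made of these sums or of a difference between the strands.

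Nuclear chromosomes carry old copies of mitochondrial DNA, and reads can be split between a gene and its copy. The copies MTCO1P12 and MTATP6P1 stood at 2274 ± 57.8 and 2785 ± 138 RPKM in DMSO, 33.7% and 33.5% of the level of MT-CO1 and MT-ATP6. Over the aligned bases MTCO1P12 matches MT-CO1 at 98.6% and shares 49.4% of its windows of 50 bases letter for letter. The copies took 25.2% of the reads on MT-CO1 and MTCO1P12 together and 25.1% of those on MT-ATP6 and MTATP6P1. Of 14 tested nuclear copies 12 rose and 0 fell by limma (0 were lower at an unadjusted p under 0.05, and 0 by limma voom), against 29.1% and 22.5% of all tested genes. Without a filter 8 of 18 rose and under quantile normalization 7 of 14. The calls of MTND1P23, MTCO1P12, MTCO3P12 and MTATP6P1 were lost under both and that of MTCO2P12 under quantile normalization. Scaled to the recovered reads the MTND1P23 and MTATP6P1 calls were lost. The MTATP6P1 call was also lost without DMSO library 2 or 3 or Nutlin-3 library 1 or 3. The MTRNR2L10 call was lost with the replicate number as a block (limma adjusted p = 0.0542). MTCO1P12 changed by 0.31 on the log2 scale, as MT-CO1 did, MTCO2P12 by 0.28 against 0.27 for MT-CO2, MTCO3P12 by 0.22 against 0.24 for MT-CO3, and MTATP6P1 by 0.16 against 0.17 for MT-ATP6. Adding the reads of each copy to its gene left the ratios of Nutlin-3 to DMSO nearly as they were, at 1.24 for MT-CO1 and 1.12 for MT-ATP6. For MT-RNR2, each copy named MTRNR2L took at most 3.82% of its joint reads with the gene, and the ratio with each added singly stayed between 1.66 and 1.67. These copies were not added together.

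**Figure D5:**
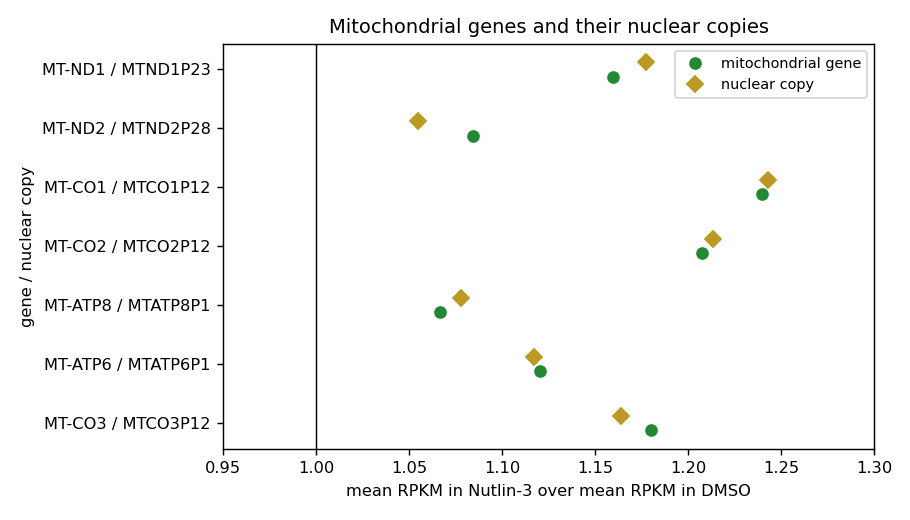
Mean RPKM in Nutlin-3 over mean RPKM in DMSO for 7 mitochondrial genes (circles) and the nuclear copy of each (diamonds), with a line at a ratio of 1.00. Each copy lies close to its gene, from 1.05 for MTND2P28 to 1.24 for MTCO1P12.

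Among the nuclear genes that act on mitochondrial DNA, the transcription list had falls and no rise. Of its 10 tested genes 0 rose and 3 fell, with a median log2 change of 0.00, against 29.1% and 22.5% of all tested genes (by limma 1 was higher at an unadjusted p under 0.05, and by limma voom 1 of 12 rose and 3 fell). TFAM (ENSG00000108064), which packs mitochondrial DNA and starts its transcription, stood at 4.56, 4.05 and 4.05 RPKM in DMSO and at 2.59, 2.81 and 2.86 in Nutlin-3. All Nutlin-3 libraries were far below all DMSO libraries, and TFAM fell to 65.3% of its DMSO level (log2 -0.54, limma adjusted p = 9.34e-04, n = 3). MTERF3, a repressor of that transcription, fell to 70.5%. POLRMT, the RNA polymerase, did not pass at 1.66 ± 0.133 and 1.76 ± 0.0396 RPKM (log2 0.07, limma adjusted p = 0.286, n = 3), and neither did the initiation factor TFB2M (log2 -0.02, limma adjusted p = 0.493) or the elongation factor TEFM (log2 0.03, limma adjusted p = 0.705).

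Of 17 tested genes of mitochondrial DNA maintenance 4 rose and 7 fell, against 29.1% and 22.5% of all tested genes. By limma voom, which tested 21 of them, 6 rose and 8 fell. RRM2B, a p53-responsive subunit of ribonucleotide reductase, rose 2.40-fold and the adenine nucleotide carrier gene SLC25A4 1.29-fold. DNA2, a nuclease-helicase, fell to 38.7% of its DMSO level. POLG, the DNA polymerase, fell to 91.9% and TWNK, the helicase, to 86.2%, but both calls lay near the threshold. With each library left out in turn the log2 change stayed between -0.12 and -0.09 for POLG and between -0.23 and -0.15 for TWNK. The POLG call was lost without DMSO library 3 or Nutlin-3 library 1 or 3 (adjusted p up to 0.0843), and the TWNK call without DMSO library 1 or 3 or Nutlin-3 library 1 or 2 (adjusted p up to 0.103). SSBP1, the single-strand binding protein, did not pass (log2 0.03, limma adjusted p = 0.612).

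In each list of genes that act on mitochondrial RNA or build the ribosome, more genes fell than rose. The shares below can be read against the 29.1% and 22.5% of all tested genes. The share that fell was near 22.5% in the lists of RNA processing and stability, aminoacyl-tRNA synthesis and ribosomal proteins. Scaled to the recovered reads, 1 rose and 8 fell in processing, 0 and 11 in modification and 0 and 9 in aminoacyl-tRNA synthesis. Ribosomal proteins had 2 rises and 34 falls that way, against 2462 and 3998 over all tested genes. Of 19 tested genes of RNA processing and stability 2 rose and 4 fell, among them the oligoribonuclease REXO2, which rose 1.27-fold, and FASTKD2, which binds MT-RNR2 and MT-ND6 RNA and fell to 85.4% of its DMSO level. LRPPRC, which stabilises the messages, did not pass (log2 -0.03, limma adjusted p = 0.330), and its partner SLIRP was under the minimum of 0.5 RPKM at 0.489 and 0.456. That minimum works on the gene span with introns, so a gene under it need not have few reads. By limma voom, which has a minimum of reads instead, 2 of 25 genes of RNA processing and stability rose and 6 fell. Of 75 ribosomal protein genes 4 rose and 28 fell that way. Of 18 tested genes of RNA modification 2 rose and 9 fell. MRM2, which methylates the large rRNA, fell to 71.2% and TRMU, which thiolates tRNAs, to 68.2% of the DMSO level. Of 19 genes of aminoacyl-tRNA synthesis 0 rose and 4 fell by limma (2 were higher at an unadjusted p under 0.05, and 1 rose and 7 fell by limma voom), among them the valine enzyme VARS2 at 88.1% of its DMSO level. Of 67 genes of mitochondrial ribosomal proteins 3 rose and 17 fell, from MRPS6 at 78.7% and MRPL18 at 81.7% of the DMSO level to MRPL41 at 1.31-fold. The MRPL41 call was lost without DMSO replicate 1, Nutlin-3 replicate 2 or Nutlin-3 replicate 3 (adjusted p up to 0.0599). Among 7 regulators of mitochondrial biogenesis 1 rose and 4 fell, with SIRT1, a deacetylase, at 70.9%, PPRC1 at 82.4% and the receptor gene ESRRA at 1.17-fold.

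Among the nuclear subunits of the complexes that also hold mitochondrial proteins, more genes rose than fell, although the share that rose was above 29.1% by little in complexes I and III and below it in ATP synthase. Of 35 tested nuclear subunits of complex I 13 rose and 1 fell, with a median log2 change of 0.09, of 9 of complex III 3 rose and 0 fell, of 11 of complex IV 7 rose and 0 fell with a median of 0.18, and of 18 of ATP synthase 2 rose and 0 fell with a median of 0.08. By limma voom on recovered reads the falls were 2, 1, 0 and 0, and at an unadjusted limma p under 0.05 they were 2, 0, 0 and 0. The balance moved with the scaling, and scaled to the recovered reads 6 rose and 5 fell in complex I, 2 and 1 in complex III, 4 and 1 in complex IV and 1 and 1 in ATP synthase. The balance over all genes moved too, as 2462 rose and 3998 fell of 12215 tested that way. NDUFA13 (1.24-fold) and NDUFS8 (1.19-fold) of complex I, COX5B (1.24-fold) and NDUFA4 (1.25-fold) of complex IV, UQCR11 (1.27-fold) of complex III and ATP5F1E (1.21-fold) of ATP synthase rose by amounts like those of MT-CO1 and MT-CO2. NDUFA6 of complex I fell to 87.8%, a call lost without Nutlin-3 replicate 1 or 2 (adjusted p up to 0.0862). Complex II, which has no mitochondrial subunit, had 1 rise, SDHC (1.28-fold), and 1 fall, SDHA to 91.0%, among 4 genes, and the SDHA call was lost without DMSO replicate 2, Nutlin-3 replicate 1 or Nutlin-3 replicate 2 (adjusted p up to 0.0809).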

How the data were processed

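RNA-seq libraries of RPE1 cells, 3 with DMSO and 3 with Nutlin-3, were used. RPKM values were made and deposited by the authors; CASAVA 1.8.2, TopHat2, edgeR and the build hg19 are named, with no role, per the submitters' processing notes. The sources used here do not give the counter, the annotation or the use of strand. Symbols and gene spans came from GENCODE 29, which is on another build, so no coordinates are given; it named 52338 of 57773 IDs. Reads were recovered as RPKM times span times library size, whole within 0.02 of a read for 88.2% of values up to 200 reads.

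The test was limma 3.58.1 in R 4.3.3 on log2(RPKM + 0.5) for genes averaging 0.5 RPKM or more, with Benjamini-Hochberg adjustment over all 12212 and a threshold of 0.05. The fold of a gene of low RPKM is understated on this scale. As RPKM divides by the gene span with introns, the minimum also left out long nuclear genes with many reads. The script was tested on simulated data. Groups and numbers came from the labels. No pair of replicates matched within sampling noise (chi-square per gene 1.67 to 4.93 within groups). Same-numbered libraries did not deviate together (correlations -0.0246, 0.00795 and 0.0174), so numbers were not taken as pairs.

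The members and lists were chosen with earlier results of these data known. Named genes are all 37, with values for the 21 tRNA genes of at least 10 reads on average, up to 2 rises and 2 falls of largest change per nuclear list, and TFAM, POLRMT, TFB2M, TEFM, LRPPRC, SLIRP, POLG, TWNK and SSBP1. A gene that this rule takes is not reported here. Alternatives were pseudocounts of 0.1 and 1, other filters, median-of-ratios and quantile scaling, the replicate block, limma voom on recovered reads (mean of at least 10), each library left out, and, chosen after seeing the data, scaling to the recovered reads. The voom fit kept the authors' library sizes. Sequences were read from GENCODE 29 transcripts.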

Additional observations from a re-analysis of the deposited data

How the results depend on the processing

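Pseudocounts of 0.1 and 1 and both median-of-ratios scalings left all 37 genes on the same side of the threshold. Without a filter 3 mitochondrial genes and 0 protein genes passed as higher by limma (1 protein gene at an unadjusted p under 0.05); the cause was not tested. Quantile normalization makes the genes of highest RPKM equal by construction and gave 3 genes higher and 6 lower, 1 protein gene higher and 2 lower, and 0 rRNA genes (0 at an unadjusted limma p under 0.05). Under it MT-ND2 (-0.10), MT-ATP8 (-0.072), MT-ND3 (-0.10) and MT-TR (-0.042) turned to lower log2 values. The protein gene that passed as higher was MT-CO3, which only changed places with MT-ATP8 in the rank order. Scaled to the recovered reads 5 genes were lower, 6 protein genes higher and 1 lower, MT-TG turned to -0.036, and the summed reads were 1.11 times (all genes) and 1.10 times (messages) the DMSO level; the median of all genes shifted by -0.07. limma voom called 10321 genes in all, 2 rRNA genes and 1 protein gene as lower.

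With each library left out in turn, 1 to 2 rRNA genes passed. Log2 changes of genes that did not pass ranged from -0.16 to 0.057 (MT-TI), -0.0095 to 0.32 (MT-TN), -0.035 to 0.32 (MT-TC), -0.046 to 0.23 (MT-TG), -0.035 to 0.27 (MT-TH) and -0.078 to 0.44 (MT-TS2).

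With the replicate number as a block, 15 genes passed as higher and 3 as lower; MT-TK was lost (adjusted p = 0.0560) and MT-ND2 and MT-TW passed. Over all genes 5135 passed, against 6296 without the block. Depth limits the tRNA genes most, down to 2 reads for MT-TL2.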
